A study of Mus musculus with 6 samples.

Results

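A set of 8 genes that mark the primitive streak and the mesoderm leaving it was followed in mouse embryoid bodies, aggregates of induced pluripotent stem cells (iPSCs), with and without intermittent compressive force (ICF). They were T (also called Brachyury or Tbxt), Eomes, Mixl1, Gsc, Evx1, Mesp1, Tbx6 and Hand1. They were taken by name as known markers, with earlier results of these data known, and all 8 were found among the 50686 gene identifiers counted. Of these, 6 passed the filter on low counts that left 16729 genes for testing, and T and Mesp1 did not. Hand1 and Eomes were expressed at moderate levels, the other 6 genes were low, with at most 42 counts in any library, and none of the 6 tested genes passed the threshold between ICF and control.

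RNA sequencing covered 3 ICF samples and 3 unloaded control samples. Each sample was grown from iPSCs that had been made from gingival fibroblasts of the mouse, freed of SNL feeder cells by selective trypsinization, grown as embryoid bodies, exposed to all-trans retinoic acid and then plated on gelatin. The ICF group was loaded with 1.5 g per square centimetre at 0.23 Hz for 24 h in serum-free medium. The control group was not loaded over the same 24 h, and the methods name no other medium for it. The labels number the samples of each group as donors 1 to 3, and these numbers serve as replicate numbers. The methods speak of independent experiments and name no donors. Retinoic acid and gelatin were common to both groups, so no comparison here bears on them, and nothing in the sources says that more than a single iPSC line was used.

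The primitive streak is the furrow of the gastrulating embryo through which epiblast cells move inward to become mesoderm and definitive endoderm. Nodal, Wnt and Bmp signals induce it. T-box and homeobox factors such as T, Eomes, Mixl1, Gsc and Evx1 are switched on there first, and Mesp1, Tbx6 and Hand1 then mark nascent cardiac, paraxial and lateral mesoderm. In cultured embryoid bodies the same genes are the usual signs that cells have begun to leave pluripotency towards mesoderm, and retinoic acid is known to change how many do so.

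The 8 genes lie on 7 chromosomes of the GRCm38 build. T spans chr17:8434423-8442496 on the plus strand, Eomes chr9:118478212-118486132 on the plus strand, Mixl1 chr1:180693043-180697034 on the minus strand and Gsc chr12:104471209-104473330 on the minus strand. Evx1 spans chr6:52313498-52318378 on the plus strand, Mesp1 chr7:79792241-79793788 on the minus strand, Tbx6 chr7:126781483-126785560 on the plus strand and Hand1 chr11:57828705-57832818 on the minus strand. All are protein-coding, with 2 to 8 exons. Their longest annotated proteins run from 216 residues for Hand1 to 707 for Eomes.

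The 3 T-box genes of the set, T, Eomes and Tbx6, are shown by the 250 bases before their transcription start, because T is a known direct target of Wnt signalling and because Eomes and Tbx6 passed the test with a replicate block given further on. The sequences are those of RefSeq on GRCm38.p6, where 6 of the 8 genes had an entry, with no entry for Mixl1 and Hand1. They are written 5′ to 3′ along the plus strand, which is the coding strand of all 3 genes, from chr17:8434173-8434422, chr9:118477939-118478188 and chr7:126781233-126781482. Capitals mark a match to the TCF/LEF motif, through which Wnt signals act on promoters.
T: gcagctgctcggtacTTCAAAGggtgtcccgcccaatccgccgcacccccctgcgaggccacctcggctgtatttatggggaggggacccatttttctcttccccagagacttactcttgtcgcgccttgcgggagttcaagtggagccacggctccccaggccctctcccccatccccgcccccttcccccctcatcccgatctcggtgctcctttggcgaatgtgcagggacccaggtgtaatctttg
Eomes: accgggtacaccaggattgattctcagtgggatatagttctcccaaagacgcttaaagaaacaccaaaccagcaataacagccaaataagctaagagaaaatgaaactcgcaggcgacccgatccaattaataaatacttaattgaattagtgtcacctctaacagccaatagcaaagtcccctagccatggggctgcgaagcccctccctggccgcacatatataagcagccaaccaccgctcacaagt
Tbx6: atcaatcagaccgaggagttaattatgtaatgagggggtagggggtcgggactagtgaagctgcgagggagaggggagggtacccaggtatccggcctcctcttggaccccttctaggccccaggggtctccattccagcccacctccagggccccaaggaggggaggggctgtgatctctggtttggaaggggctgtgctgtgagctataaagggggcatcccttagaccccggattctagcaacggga

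Windows of 300 bases, these 250 and the first 50 transcribed, were searched on both strands for 4 motifs that do not overlap in their letters. The TCF/LEF motif (CTTTGAA or CTTTGAT) occurred once in the window of T, in reverse as TTCAAAG, and at 2 places in that of Mesp1. Among all 32817 promoter windows 8.65% held it. A T-box element (GGTGTGA), found in 3.98% of windows, occurred only in the window of Mesp1 among the 6. The FOXH1 motif (TGTGGAT, the DNA partner of Nodal signalling, 3.38% of windows) and the hypoxia factor motif (ACGTG or GCGTG, 43.8% of windows) were in none of the 6. The windows of Gsc and T were rich in CpG, with 25 and 17 CpG dinucleotides against a median of 7, and that of Mesp1 held 4.

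Between 28711166 and 34194413 reads per library were counted on genes, so that 1 count was worth 0.0288 to 0.0348 CPM (library-size-scaled counts with TMM factors, the unit of all levels below). Multiples of 4 made up 88.99% of the counts above 0 in ICF replicate 3, against 20.34% to 21.54% in the other libraries, and 20802 genes had a count against 24340 to 24889. The counts of all 8 genes in that library were multiples of 4, so its levels move in steps of 0.138 CPM and each low value of it is coarse. The limit of detection was taken as 3 counts in the other libraries and as 12 counts, or 0.414 CPM, in ICF replicate 3. Over all genes, 580 rose and 733 fell with ICF in edgeR's quasi-likelihood test at a Benjamini-Hochberg adjusted p under 0.05. The median log2 change was 0.00264, near 0, where the TMM factors place the bulk of genes by design. The pluripotency markers were high in every library, with a summed level of 3670 to 4360 CPM in control and 3520 to 4030 CPM with ICF over 11 genes.

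Ordered by level per kilobase of exon, the mean over the 6 libraries was 20.1 CPM per kb for Hand1 and 7.02 for Eomes. These were followed by Tbx6 at 0.526, Gsc at 0.319, Mixl1 at 0.234, Evx1 at 0.143, T at 0.137 and Mesp1 at 0.0164 CPM per kb. Hand1 and Eomes stood apart, since the lowest library of Hand1 (13.9) was above the highest of Eomes (8.61) and the lowest of Eomes (5.86) above the highest of Tbx6 (0.81). From Tbx6 down to T, each gene overlapped the next in its range over libraries and no order among neighbours could be drawn. Of the tested genes, 81.8% and 60.3% had a lower level per kb than Hand1 and Eomes, and 17.5% a lower level than Tbx6. For T this share was 4.21%. Of 13218 counts on the 8 genes in all libraries, Hand1 and Eomes held 12727 (96.3%) and the other 6 genes 491.

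**Figure D1:**
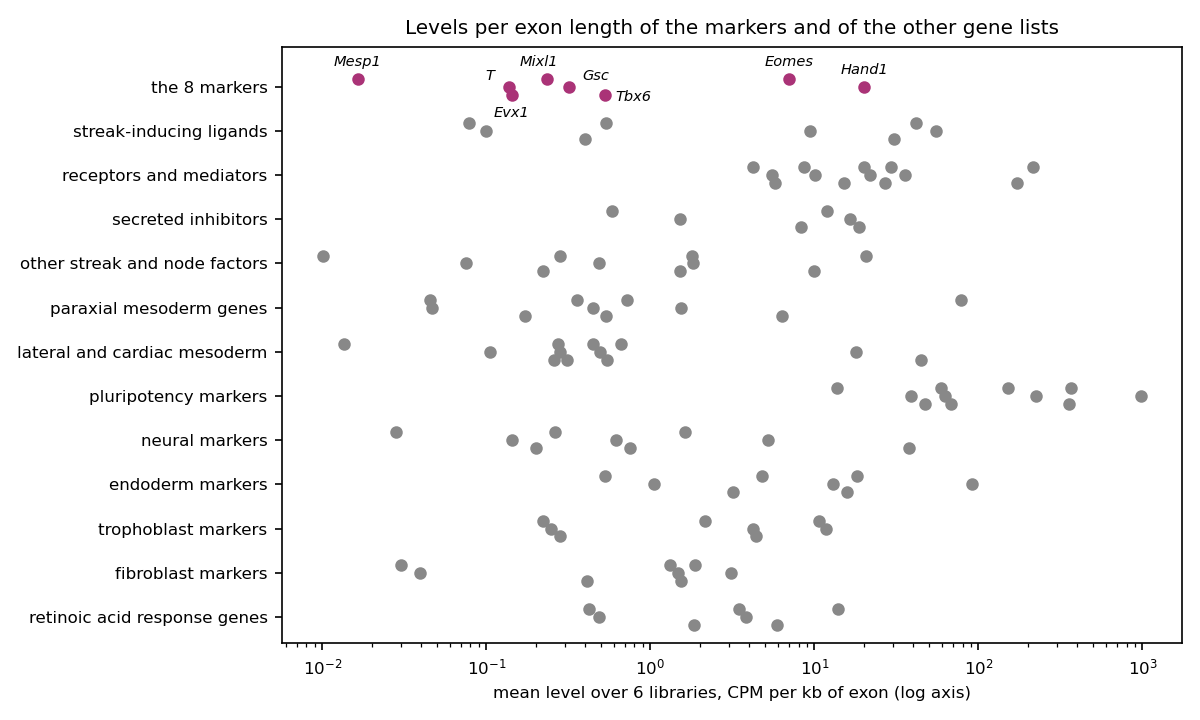
Mean level over the 6 libraries in CPM per kilobase of exon (horizontal log axis) for the 8 markers, named, and for each gene of the 12 other lists (rows, 1 point per gene, set at slightly different heights to part them). Hand1 and Eomes lie within the range of the signalling genes, while the other 6 markers lie at 0.526 CPM per kb or less.

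T is the T-box factor that pushes streak cells towards posterior mesoderm and notochord. It was counted 5, 8 and 8 times in control replicates 1 to 3 and 13, 9 and 16 times with ICF, or 0.171, 0.256 and 0.278 against 0.374, 0.272 and 0.552 CPM. The ICF libraries were higher on the whole, in 3 of 3 same-numbered pairs, but ICF replicate 2 lay just under control replicate 3, so the groups overlapped. Means were 0.235 ± 0.0565 CPM in control and 0.400 ± 0.142 CPM with ICF (SD, n = 3 each). The difference in mean log2 CPM was 0.61 (SE 0.30), and the exact permutation test (two-sided, with 0.1 as the smallest p that 3 against 3 can give) had p = 0.2. With a looser filter that let T into the edgeR fit, its log2 change was 0.74 with an adjusted p of 0.55. The summed counts, 21 against 38, gave a ratio of 1.67 with a 95% counting interval of 0.955 to 3. It covers counting error only and takes each count as independent. Since 16 of the 38 came from ICF replicate 3, with its steps of 4, the interval may be too narrow even for that.

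Eomes, the T-box factor that starts streak and definitive endoderm and also acts in trophoblast stem cells, was the better measured of the early genes. Its level was 27.3, 30.7 and 35.8 CPM in control and 24.5, 24.4 and 32.3 CPM with ICF, from 798 to 1029 counts per library. Each ICF library was below the control library of its own number, yet ICF replicate 3 was above control replicates 1 and 2 and the groups overlapped. Means were 31.3 ± 4.27 and 27.1 ± 4.55 CPM (SD, n = 3 each). The log2 change was -0.21 (SE 0.18), a fall of 13.6% in level, with an adjusted p of 0.38 in edgeR. The SEs here come from replicate SDs of log2 CPM and not from the fit. With the replicate number as a block in the same edgeR fit, the change was -0.21 with an adjusted p of 0.021. An antisense gene, Gm33460, shares 1.29% of the 75-base stretches of Eomes and had 9 to 28 counts per library, against 798 to 1029 for Eomes.

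Mixl1, a paired-type homeobox factor of the streak, was measured at 0.582, 0.319 and 0.487 CPM in control and 0.662, 0.757 and 0.414 CPM with ICF. Its highest values were ICF replicates 1 and 2 and its lowest was control replicate 2, while ICF replicate 3 lay below 2 control libraries. The log2 change was 0.41 (SE 0.32, adjusted p = 0.51 in edgeR). Gsc, the homeobox factor of the anterior streak and organizer, was at 0.205, 0.479 and 0.452 CPM in control and 0.317, 0.696 and 0.276 CPM with ICF. The 2 groups of Gsc were interleaved, and its change was 0.18 (SE 0.49, adjusted p = 0.85). Evx1, the homeobox factor of the posterior streak, was at 0.240, 0.319 and 0.452 CPM in control and 0.403, 0.363 and 0.690 CPM with ICF. Evx1 was higher with ICF in 3 of 3 pairs, though ICF replicates 1 and 2 lay under control replicate 3. Its log2 change was 0.51 (SE 0.34, adjusted p = 0.47 in edgeR). Each of these 3 genes rested on 6 to 25 counts per library, and the block left their adjusted p at 0.40 to 0.80. In ICF replicate 3, Mixl1 (12 counts) was at the limit of detection of that library and Gsc (8 counts) under it. The antisense gene Evx1os, which overlaps Evx1, had 0 to 7 counts per library.

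Mesp1, the bHLH factor of nascent cardiac and cranial mesoderm, was all but undetected, with counts of 0, 1 and 1 in control and 1, 1 and 0 with ICF. Both groups were under the limit of detection, so no fold change is given. That limit is 3 counts, or 0.0864 to 0.104 CPM, in the libraries other than ICF replicate 3. In ICF replicate 3 it is 12 counts, or 0.414 CPM. The counts say that Mesp1 mRNA was below these limits at this depth, not that it was absent.

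Tbx6, the T-box factor that commits cells to paraxial mesoderm, showed the only separation between the groups. It was counted 34, 34 and 42 times in control and 25, 28 and 12 times with ICF, or 1.16, 1.09 and 1.46 against 0.720, 0.847 and 0.414 CPM. Every ICF library lay below every control library, and ICF replicate 3 was the lowest of all. That lowest value, 12 counts, was at the limit of detection of its library. Non-overlapping groups were found for 1 of the 6 tested markers and for 31.4% of all tested genes. Means were 1.24 ± 0.198 CPM in control and 0.660 ± 0.223 CPM with ICF (SD, n = 3 each), a level 0.541 times that of control. The log2 change was -0.89 (SE 0.31), with an unadjusted p of 0.018 and an adjusted p of 0.11 in edgeR, and p = 0.1 in the exact permutation test, the smallest it can give.

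With the replicate block, Tbx6 fell by 0.89 on the log2 scale with an adjusted p of 0.031. The 3 pairs differed by -0.65, -0.34 and -1.67 in log2 CPM, so replicate 3 carried the widest gap. With replicate 3 of both groups left out the change of Tbx6 was -0.52 and did not pass the threshold. With the counts of ICF replicate 3 divided by 4, it was -0.75 without the block, not past the threshold, and -0.69 with it (adjusted p = 0.042). In bulk libraries fewer cells of a type and less RNA per cell cannot be told apart, here as for every gene above and below.

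Hand1, a bHLH factor of lateral and extraembryonic mesoderm and of the heart that is also strong in trophoblast giant cells, had the highest level of the 8. It was at 29.7, 33.3 and 62.6 CPM in control and 27.7, 31.8 and 56.1 CPM with ICF, from 868 to 1800 counts. The numbers ran side by side in both groups, with replicate 3 far above replicates 1 and 2, and the groups overlapped throughout. Means were 41.9 ± 18.1 and 38.5 ± 15.3 CPM (SD, n = 3 each), and the log2 change was -0.12 (SE 0.46, adjusted p = 0.85 in edgeR). Same-numbered samples differed by only -0.10, -0.06 and -0.16 in log2 CPM, and the block gave an adjusted p of 0.21.

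**Figure D2:**
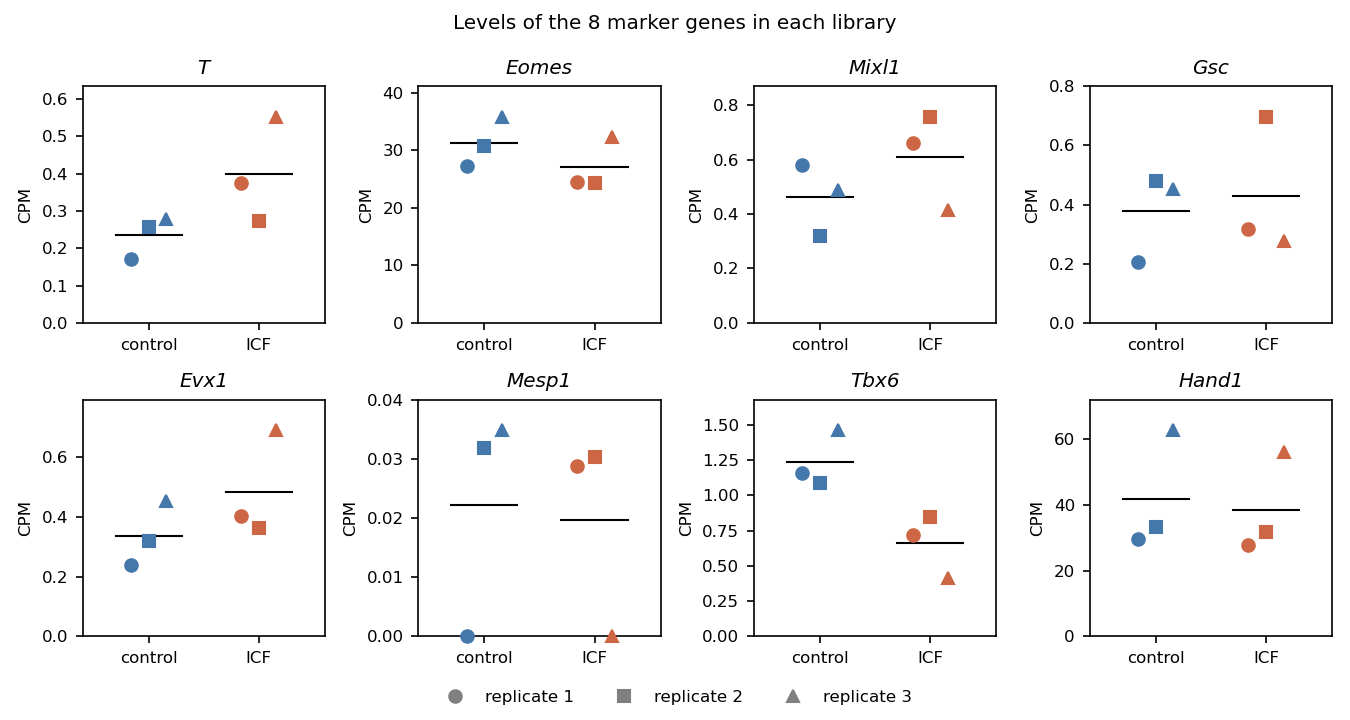
Level of each of the 8 marker genes in CPM (vertical axes, all from 0) in the 3 control and 3 ICF libraries, with the replicate number as the symbol and the group mean as a line. Tbx6 alone has all ICF libraries below all control libraries, and Hand1 is highest in replicate 3 of both groups.

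Counted together, 0 of the 6 tested markers passed the threshold in edgeR, where 7.85% of all tested genes did, and 1 of 6 (Tbx6) had an unadjusted p under 0.05, where 25.6% of all did. DESeq2 gave an adjusted p for only 3 of the 6, Eomes, Tbx6 and Hand1, and called 0 of these, where it called 13.2% of the genes it could adjust. In the tested markers 3 changes were above 0 and 3 below, with a median log2 change of 0.03. With the replicate block 2 of the 6, Eomes and Tbx6, were lower with ICF, where 29.9% of all tested genes were called in either direction and 15.3% as lower. These 2 genes are 33.3% of the 6, a share above the 15.3% called as lower and close to the 29.9% called in either direction, and it rests on 2 genes. A p that misses the threshold does not show that a gene was alike in both groups, and the counting intervals of the low genes were wide, from 0.893 to 2.06 for the ratio of Mixl1 and from 0.708 to 1.85 for that of Gsc. These intervals take each count as independent, also in ICF replicate 3 with its steps of 4, and may be too narrow.

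Replicate 3 stood above the mean of replicates 1 and 2 in both groups for several markers. The ratio was 1.99 in control and 1.88 with ICF for Hand1, 1.62 and 1.80 for Evx1, and 1.23 and 1.32 for Eomes. Mixl1, Gsc and Tbx6 were above 1 in control (1.08, 1.32 and 1.3) and below it with ICF (0.584, 0.545 and 0.529). A ratio over 1.3 in both groups, a limit set after the values were seen, was found for 2 of the 6 tested markers, Hand1 and Evx1, and for 952 of all tested genes (5.69%). Eomes was under this limit in control. Among the other streak and node factors 2 of 8 tested genes, Lhx1 and Cdx2, were above it. Also above it were 1 of 8 endoderm markers, Dab2 (1.43 in control and 1.34 with ICF), and 1 of 8 tested paraxial genes, Dll1. The same held for 1 of 11 tested lateral, cardiac and blood-forming genes and 1 of 7 tested fibroblast markers. Among pluripotency and neural markers it was 0 of 11 and 0 of 7. Since Hand1 and Eomes are also known in trophoblast, markers of that cell type were read beside them. Of 8 trophoblast markers, all tested, 5 passed the same limit in both groups, namely Elf5, Gcm1, Plac1, Prl3d1 and Krt7. The other 3 did not. Tpbpa was below 1 in both groups (0.814 in control and 0.818 with ICF). Hsd3b6 was at 2.64 in control and 0.999 with ICF, and Ascl2 at 1.06 and 1.35. Krt7, an epithelial keratin, was at 23.7, 24.4 and 34.4 CPM in control and 25.4, 28.1 and 41.4 CPM with ICF. Prl3d1, a placental hormone of giant cells, was at 7.19, 8.05 and 13.3 against 9.90, 8.5 and 14.8 CPM. None of the 8 was at 0 throughout, and their summed level was 57.5 to 80.8 CPM in control and 61.1 to 90.1 CPM with ICF. Between ICF and control 0 of these 8 passed the threshold in edgeR and 0 of the 6 with an adjusted p in DESeq2, 1 had an unadjusted p under 0.05, and 2 passed with the block, Krt7 among them (adjusted p = 0.036). Over all genes these shares were 7.85% in edgeR, 13.2% in DESeq2, 25.6% for the unadjusted p and 29.9% with the block. The part of the trophoblast markers in the levels of Hand1 and Eomes was not tested.

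**Figure D3:**
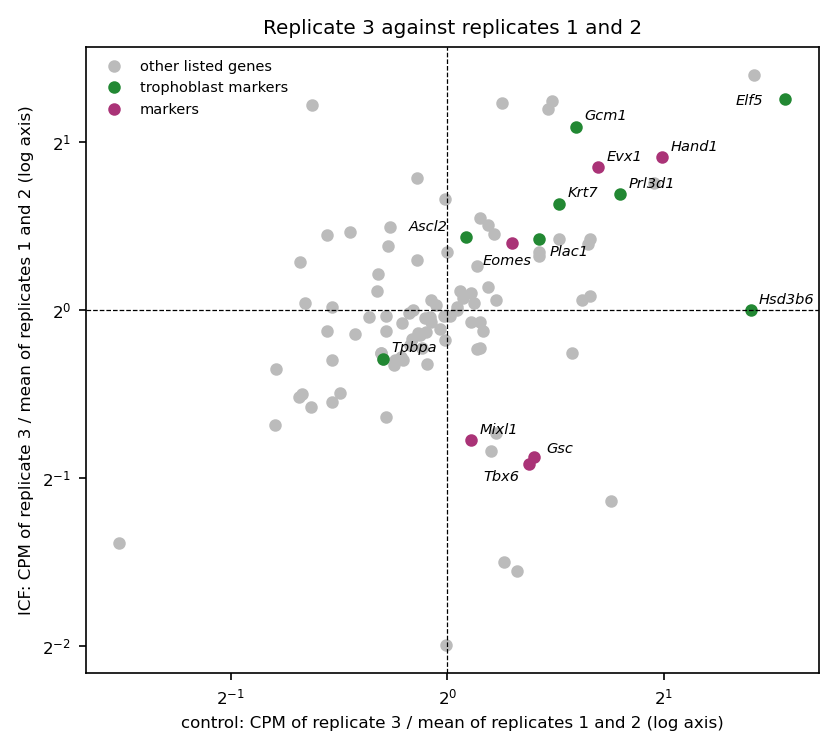
Ratio of replicate 3 to the mean of replicates 1 and 2 in control (horizontal) and with ICF (vertical), both on log axes in base 2, for the tested markers, the trophoblast markers and the other listed genes, with dashed lines at equal levels. Hand1, at 1.99 and 1.88, and Evx1 lie at the upper right with several trophoblast markers, while Tpbpa lies at the lower left. Mixl1, Gsc and Tbx6 lie at the lower right.

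The signals and neighbours of these markers were read through 6 lists of 59 genes, of which 52 were tested. Across them 4 genes rose and 4 fell (15.4%), where 3.47% of all tested genes rose and 4.38% fell, with a median log2 change of 0.02. DESeq2 called 10 of the 44 it gave an adjusted p, where 13.2% of all such genes were called. An unadjusted p under 0.05 was found for 14 of the 52, where 25.6% of all tested genes had one. The block gave 8 higher and 9 lower, where 14.6% and 15.3% of all genes were. The 4 that rose were sensitive to single libraries. Their number was 1 without control replicate 1 and 0 without control replicate 2, ICF replicate 1 or ICF replicate 2. Of the 4 that fell, Tdgf1, Lef1 and Lefty1 passed with each library left out.

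Among 8 streak-inducing ligands, 6 tested, Nodal rose, where 3.47% of all tested genes did. Nodal, the TGF-beta family ligand that induces the streak, was at 60.7, 55.4 and 51.5 CPM in control and 70.8, 74.5 and 71.7 CPM with ICF. Every ICF library was above every control library, and the log2 change was 0.37 (SE 0.07, adjusted p = 0.020 in edgeR). The most abundant of the others did not pass in this fit. Fgf4 was at 185 and 169 CPM in the means of control and ICF, Gdf3 at 96.3 and 105 CPM and Bmp4 at 19.2 and 23.1 CPM. With the block Fgf4 passed as lower (adjusted p = 0.049) and Bmp4 as higher (0.017). Wnt3 and Wnt3a, the Wnt ligands of the streak, were too low for testing, with 3 to 24 counts per library.

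Of 13 receptors, co-receptors and mediators, all tested, 1 rose and 2 fell, where 3.47% and 4.38% of all tested genes did. Tdgf1 (Cripto), the co-receptor of Nodal, was at 761, 785 and 620 CPM in control and 393, 387 and 453 CPM with ICF, and the log2 change was -0.81 (SE 0.13, adjusted p = 0.0028 in edgeR). Lef1, a DNA-binding partner of beta-catenin in Wnt signalling, was at 82.8, 79.2 and 67.5 CPM in control and 21.4, 23.0 and 31.2 CPM with ICF, a change of -1.60 (SE 0.19, adjusted p = 0.00069). For both, the groups were far apart. Lef1 was among the genes the study singled out on these same samples, so its count here is not independent evidence. Fgfr1, the FGF receptor needed for cells to leave the streak, rose by 0.25 (SE 0.03, adjusted p = 0.031), from 91.0 to 108 CPM in the means. Ctnnb1 (beta-catenin) was at 886 and 904 CPM, Tcf7l1 at 132 and 149 CPM and Fzd7 at 125 and 117 CPM, and none of these passed without the block. With it Tcf7l1 passed as higher (adjusted p = 0.0064).

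Of 6 secreted inhibitors, all tested, 2 fell, where 4.38% of all tested genes did, and both restrain Nodal. DESeq2 called 3 of the 6, where it called 13.2% of the genes it could adjust. The block also called 3, where it called 29.9% of all tested genes. Lefty1 was at 40.0, 33.0 and 32.6 CPM in control and 24.8, 22.2 and 20.8 CPM with ICF (log2 change -0.63, SE 0.12, adjusted p = 0.010 in edgeR). Lefty2 was at 35.3, 34.9 and 40.6 CPM in control and 23.6, 21.9 and 31.2 CPM with ICF (log2 change -0.53, SE 0.17, adjusted p = 0.045). No ICF library reached a control library in either gene, but Lefty2 did not pass the threshold with any library other than ICF replicate 3 left out, with adjusted p from 0.077 to 0.15. The Wnt inhibitor Dkk1 was at 34.5, 32.4 and 44.8 CPM in control and 49.7, 48.9 and 61.7 CPM with ICF, with an adjusted p of 0.051 in edgeR and of 4.1e-08 with the block. The Bmp inhibitors Nog and Chrd had log2 changes of 0.09 and 0.11 and did not pass.

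Of 10 other transcription factors of streak and node, 8 were tested and 2 rose, where 3.47% of all tested genes did. Lhx1, a LIM homeobox factor of the organizer and anterior mesendoderm, was at 3.25, 4.02 and 5.70 CPM in control and 6.88, 7.72 and 9.53 CPM with ICF (log2 change 0.89, SE 0.27, adjusted p = 0.040 in edgeR). Foxj1, the regulator of motile cilia that is active in the node, was at 3.46, 3.55 and 2.96 CPM in control and 5.79, 7.14 and 5.25 CPM with ICF (log2 change 0.87, SE 0.15, adjusted p = 0.016). Both groups were separate in both genes. Noto, also in this list of streak and node factors, was too low for testing, with 0 or 1 count per library. Foxa2 was at 22.7 and 24.4 CPM in the means and Cdx2 at 4.08 and 4.12 CPM, and neither passed in either fit. The widest changes of this list were in 3 scarce genes, picked out after their values were seen, with groups that did not overlap. In ICF replicate 3, Cdx1 (4 counts) and Sp5 (8 counts) were under the limit of detection of that library. Cdx4, a caudal-type homeobox factor of the posterior body, changed by 1.80 on the log2 scale (SE 0.41) with an adjusted p of 0.056 in edgeR and 0.0040 with the block. Cdx1, of the same family, had a change of -1.61 (adjusted p = 0.063, and 0.00059 with the block), and the Wnt target Sp5 had a change of -1.12 (adjusted p = 0.11, and 0.026 with the block). An unadjusted p under 0.05 was found for 6 of the 8 tested genes of this list, where 25.6% of all tested genes had one. The block called 3 as higher and 3 as lower, where it called 14.6% and 15.3% of all tested genes. Snai1, which represses E-cadherin as cells leave the streak, was at 44.3, 43.9 and 27.4 CPM in control and 28.3, 33.8 and 21.7 CPM with ICF, with an adjusted p of 0.19 in edgeR and of 5.8e-06 with the block. Snai1 was lower with ICF in every pair, while replicate 3 was the lowest of its group.

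Genes of the mesoderm that follows the streak did not pass the threshold. This held for 8 tested of 10 paraxial mesoderm genes and 11 tested of 12 lateral, cardiac and blood-forming mesoderm genes, with 0 at an unadjusted p under 0.05 in either list. DESeq2 called 0 of the 7 and 8 genes to which it gave an adjusted p. The block called 1 paraxial gene, Tcf15, and 0 of the others. Over all tested genes 7.85% passed in edgeR, 25.6% had an unadjusted p under 0.05 and 29.9% passed with the block. DESeq2 called 13.2% of the genes it could adjust. In lists this short, 0 past the threshold in edgeR is not far from the 7.85% over all. The 0 at an unadjusted p under 0.05 and the 1 with the block lie further below 25.6% and 29.9%. These gaps were not tested. Tcf15, a bHLH factor of somites, was at 82.5 CPM in control and 70.7 CPM with ICF in the means (log2 change -0.22, adjusted p = 0.45 in edgeR and 0.0033 with the block). Meox1 (15.1 and 13.3 CPM) and the Notch ligand Dll1 (5.72 and 7.30 CPM) did not pass in either fit. Pdgfra, a receptor of mesoderm and of primitive endoderm, was at 178 and 182 CPM, Gata4 at 173 and 177 CPM and Tbx20 at 3.74 in both groups. Msgn1, which acts beside Tbx6 in presomitic mesoderm, had 0 to 4 counts per library and Ripply2, a target of Tbx6, 0 to 3. Some of the tested genes were scarce too. Hes7 had 0 to 14 counts per library, Mesp2 21 to 36, Hand2 16 to 31 and Nkx2-5 19 to 32. At such counts a miss of the threshold says little about change.

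**Figure D4:**
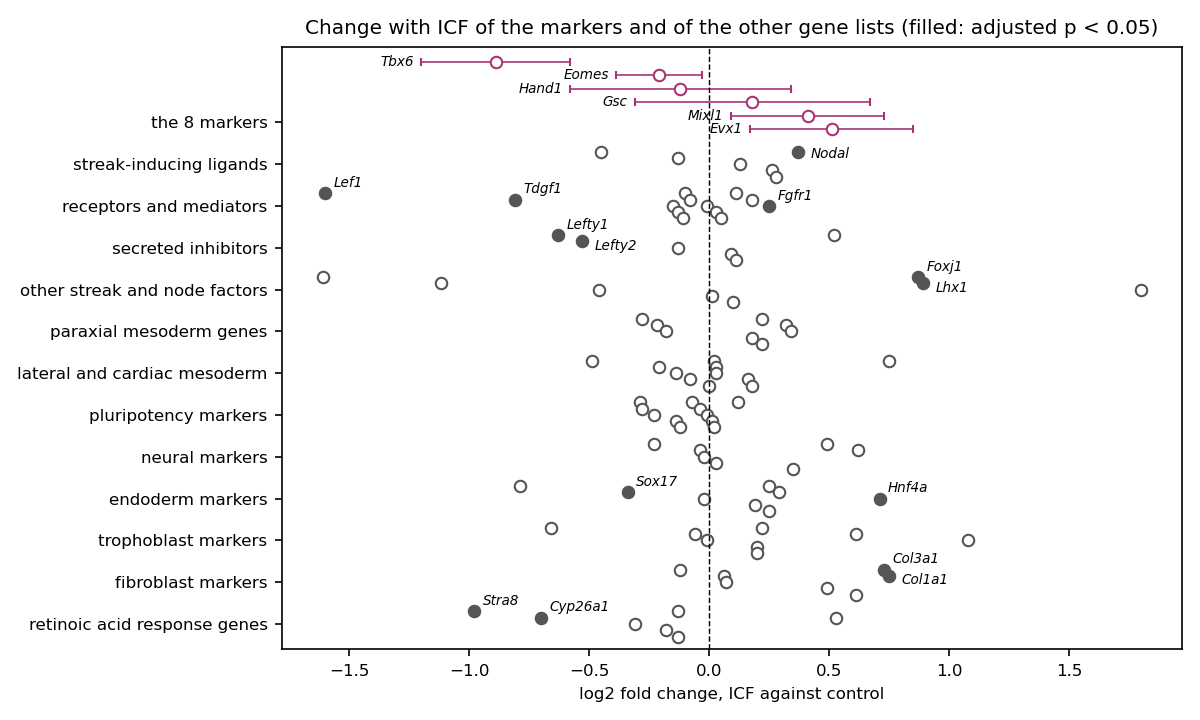
Log2 fold change of ICF against control from edgeR (horizontal axis) for the 6 tested markers, with bars of 1 SE between replicates, and for the tested genes of the other lists, filled where the adjusted p was under 0.05. No marker is filled, the filled genes among the signalling lists run from Lef1 at -1.60 to Lhx1 at 0.89, open points of the streak and node factors reach from -1.61 to 1.80, and the paraxial and lateral mesoderm lists hold no filled point.

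Markers of other cell types were read in the same fit. Beside their counts, 7.85% of all tested genes passed in edgeR and 29.9% with the block, and 25.6% had an unadjusted p under 0.05. DESeq2 called 13.2% of the genes it could adjust. Of 11 pluripotency markers 0 passed in edgeR, 1 in DESeq2 and 3, all lower, with the block. Pou5f1 was at 841 and 817 CPM in the means of control and ICF, Sox2 at 457 and 463 CPM and Dppa5a, lower with the block (adjusted p = 1.2e-05), at 669 and 546 CPM. Of 9 neural markers 7 were tested and 0 passed in edgeR, 1 of 6 in DESeq2 and 3 with the block, with 3 at an unadjusted p under 0.05. Sox1 had a log2 change of 0.03, Tubb3 was at 75.8 and 64.8 CPM and Map2 at 10.9 and 13.9 CPM, and with the block Tubb3 passed as lower (adjusted p = 0.0025) and Map2 as higher (0.0073). Of 8 endoderm markers Hnf4a rose (log2 change 0.71, adjusted p = 0.035 in edgeR) and Sox17 fell (-0.34, adjusted p = 0.045). Hnf4a did not pass without replicate 1 or 2 of either group (adjusted p from 0.083 to 0.15), nor Sox17 with any library but ICF replicate 2 left out (0.060 to 0.18). Dab2, at 610 and 725 CPM, Gata6, at 96.2 and 109 CPM, and Sox7, at 60.8 and 59.9 CPM, did not pass without the block. With it Dab2 (adjusted p = 9.7e-05) and Gata6 (0.0061) passed as higher.

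Fibroblast markers were read because the cells had been grown on feeder cells. Of 8, 7 were tested, and Col1a1 (log2 change 0.75, adjusted p = 0.022 in edgeR) and Col3a1 (0.73, adjusted p = 0.048) rose. Over all tested genes 3.47% rose. Col3a1 no longer passed with any library left out, with adjusted p from 0.067 to 0.15, nor Col1a1 without control replicate 1 or ICF replicate 1 or 2, with adjusted p from 0.053 to 0.084. The summed level of the list was 41.0 to 68.2 CPM in control and 69.3 to 92.4 CPM with ICF. Col1a2 was at 15.1 and 22.9 CPM, Dcn at 8.98 and 8.28 CPM and Thy1 at 5.45 and 5.70 CPM, and these did not pass without the block. With it Col1a2 passed as higher (adjusted p = 1e-06). Lum was near 0, with 0 to 4 counts per library. Among retinoic acid response genes Cyp26a1, which degrades retinoic acid, fell by 0.70 on the log2 scale (adjusted p = 0.0052 in edgeR) and Stra8 by 0.98 (adjusted p = 0.0062). Crabp2, a carrier of retinoic acid, had a log2 change of 0.53 (adjusted p = 0.37 in edgeR and 0.025 with the block). The part of these genes in the values of the streak markers was not tested.

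The genes most like each marker over the 6 libraries were sought among tested genes that averaged 100 counts or more, by Pearson's r of log2 CPM, as a description with no test. Eomes was closest to Smc3 (r = 0.990), Tmem87b (0.988) and Sycp1 (0.987), and Hand1 to Trim36 (0.995), Cep95 (0.993) and Tug1 (0.992). Evx1 was closest to Pik3cb (0.997), Dek (0.997) and Chd1 (0.995), and Tbx6 to Lmln (0.998), Pir (0.996) and Prex1 (0.994). For Mixl1 they were Ccdc106 (0.992), St6gal1 (0.989) and Rhbdf2 (0.980), and for Gsc Echdc1 (0.983), Tmem164 (0.977) and Wdr33 (0.968). The candidates numbered 11924 or 11925, and for Mixl1, Gsc, Evx1 and Tbx6 they follow counts of 6 to 42 per library. Among the markers themselves, only the pairs with the r largest in size are given. They were T and Evx1 (0.94), Eomes and Hand1 (0.88) and T and Tbx6 (-0.84), all over the same 6 libraries and group difference. T rested on 5 to 16 counts per library.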

How the data were processed

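Per the labels and the methods, strand-specific libraries were read as single 75-base reads, and the authors used FastQC and Trimmomatic for quality, HISAT2 for mapping and HTSeq for counting. The deposited values are whole-number counts per gene without normalization. The submitters' processing notes name GRCm38, hg38 and bcl2fastq 2.19. The annotation and HTSeq's strand setting are not given in the sources used here, so reads of Eomes or Evx1 and their antisense genes could not be told apart with certainty. HTSeq leaves out reads with several alignments. Summary lines naming no gene held 38.08% to 40.29% of all entries and were left out. The RNA kit is RNeasy per the labels and Ribospin II per the methods.

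Gene names came from GENCODE M21 on GRCm38, which held 50376 of 50686 identifiers. Counts were tested with edgeR 4.0.16 in R 4.3.3 (TMM, filterByExpr by group, glmQLFit and glmQLFTest, Benjamini-Hochberg threshold 0.05 over 16729 genes, limma 3.58.1 loaded). The procedure was tested on simulated data. For log2 CPM a prior count of 2 was added. T and Mesp1, below the filter, were described by counts and an exact permutation test. The markers and lists were chosen with earlier results of these data known. Named were all 8 markers, every listed gene past the threshold, up to 3 further genes per list by mean CPM, and the 3 genes most like each marker. Wnt3, Wnt3a, Msgn1, Ripply2, Cdx1, Cdx4, Sp5, Lum and the trophoblast genes beyond this rule were added after their values were seen. Some genes of the retinoic acid list, and the list's counts and summed level, are not reported here. Alternatives were RLE size factors, DESeq2 1.42.0 (an adjusted p of NA stayed NA), a filter of at least 1 count in any sample or 10 in every sample, the replicate block, replicate 3 of both groups left out, each sample left out, and a division by 4 of the counts in ICF replicate 3. The block with the division by 4 was added after the data were seen. The donor numbers in the labels gave the pairing, and in the 3 same-numbered pairs the departures from the group mean had r = 0.15, 0.197 and 0.376 over genes, all over 0.1. Samples of unlike number had r from -0.343 to 0.263, and control replicate 1 was closer to ICF replicate 2 than to ICF replicate 1, so the values set only replicate 3 apart. With 28711166 to 34194413 counts per library, 3 counts correspond to at most 0.104 CPM. For ICF replicate 3, with its steps of 4, the limit was 12 counts or 0.414 CPM.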

Additional observations from a re-analysis of the deposited data

How the results depend on the processing

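Over all genes, the number that rose was 580 and became 877 with DESeq2, 2445 with the replicate block, 2681 with the block and the counts of ICF replicate 3 divided by 4, 2466 with replicate 3 of both groups left out, and 85 to 724 when single samples were left out. The number that fell was 733 and became 1071 with DESeq2, and 2561, 2778, 2627 and 215 to 928 under the last 4 of these. With the filter of at least 1 count in any sample, 841 rose and 1019 fell. Of the markers 0 passed, against 2 with the block, 2 with the block and division, 1 (Eomes, adjusted p = 0.012 in edgeR) with replicate 3 of both groups left out and 0 with any 1 sample left out. The listed genes that rose numbered 4, then 8 with the block, 8 with the block and division and 0 to 5 with 1 sample left out. Those that fell numbered 4, then 9 with the block, 9 with the block and division, 9 without replicate 3 of both groups and 3 to 4 with 1 sample left out. The log2 change of Eomes passed the threshold at -0.21 with the block, -0.22 with the block and division and -0.25 without replicate 3 of both groups. Tbx6 passed at -0.89 with the block and -0.69 with the block and division. The sign turned when 1 sample was left out for Gsc, between -0.34 and 0.41, and for Hand1, between -0.48 and 0.29, neither past the threshold. Eomes (-0.35 to -0.10), Tbx6 (-1.09 to -0.65), Mixl1 (0.20 to 0.63), Evx1 (0.19 to 0.77) and T (0.39 to 0.82) kept their sign. The cause of these shifts was not tested. No sign turned under the RLE factors, DESeq2 or the other filters. Gsc and Evx1 have no value under the strict filter, and Mesp1, at or under the limit of detection in both groups, is given no fold change. For the 14 other genes past the threshold, 157 values kept direction and side of it, 39 no longer passed, all with 1 sample left out, and 0 turned. For named genes not past the threshold, only the values with the block are given, beside their levels, and several passed there. Depth and the steps of 4 in ICF replicate 3 limit every marker but Eomes and Hand1.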
